A study of Drosophila melanogaster with 12 samples.

Results

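The genes described here are 47 *Drosophila melanogaster* genes that were close to silent in control accessory glands and were detected in every Myc+E2f/Dp library. They were taken from the 6288 genes of the table that carry only a CG number, the computed-gene identifier given to fly genes without a name, out of 14323 genes in all. A gene was selected where the highest of the 3 control libraries was below 0.5 TPM (transcripts as a share of all transcripts in a library, scaled to a fixed total) and the lowest of the 3 Myc+E2f/Dp libraries was at 2 TPM or more. The control and Myc+E2f/Dp values thus chose the genes, and they are given below as a description with no test. Among the 3076 CG genes below 0.5 TPM in every control library, these 47 make up 1.53%. Among the 2817 such genes that carry another symbol, 98 passed the same thresholds, which is 3.48%.

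RNA came from glands of virgin males at 10 days, with 3 libraries for each of 4 genotypes and 80 to 100 pooled glands per library. All 4 genotypes carried hs-flp12, UAS-P35, Act>CD2>gal4 and UAS-GFP(nls), in a y,w background. A heat shock of 20 min at 37°C let flippase remove a stop cassette, after which Gal4 drove the UAS transgenes at 25°C. Myc+E2f/Dp glands carried UAS E2F1, UAS-Dp and UAS-dMyc. Yki*+Dp glands carried UAS-Yki 111,168,250 (a constitutively active Yki) and UAS-Dp, and their label also lists UAS E2F1, whose induction the study describes as lost in that line. Yki-WT glands carried UAS-yki. GFP+P35 glands, with no further transgene, were the control. P35 is a baculoviral inhibitor of apoptosis, and it was thus present in all 4 genotypes. Recombination is mosaic and the actin promoter is active in other tissues too. Glands with little or no GFP were left out, and the ejaculatory duct and testis are described as removed. Marker genes of both were still detected in the libraries, as given below.

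Main cells and secondary cells form the secretory epithelium of the adult accessory gland, and they leave the cell cycle early in adult life. E2f1 with its partner Dp activates genes of DNA replication, and Myc raises ribosome production and with it cell growth. Yki has no DNA-binding domain of its own and switches on growth genes with partners such as Scalloped, unless Hippo signalling keeps it out of the nucleus. Most of the 47 genes have no assigned role in the files or the annotation. Each is therefore given by its number, position and values, and no role is stated unless the annotation names one.

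The libraries can be described in short. Libraries of 1 genotype correlated at 0.986 or more on the log scale. E2f1 had 795 to 1021 TPM in Myc+E2f/Dp, 18.5 to 22.8 in Yki*+Dp, 14.4 to 17.4 in Yki-WT and 16.5 to 21.2 in GFP+P35. Dp had 618 to 1449 TPM in Myc+E2f/Dp and 1866 to 2548 in Yki*+Dp, against 19.0 to 24.5 in GFP+P35. Myc had 114 to 232 TPM in Myc+E2f/Dp, against 15.2 to 21.7 in GFP+P35. yki had 348 to 431 TPM in Yki*+Dp, 70.5 to 163 in Yki-WT and 14.2 to 16.5 in GFP+P35. It also had 122, 175 and 55.9 TPM in Myc+E2f/Dp, a genotype whose label lists no yki transgene. The E2f1 level of Yki*+Dp thus overlapped that of the control, and the yki level of Myc+E2f/Dp did not. The main cell markers summed to 84201 to 91717 TPM in Myc+E2f/Dp and 98325 to 106509 TPM in GFP+P35, so the labelled tissue was present in both. The data are from whole glands, where a change in the number of cells that express a gene and a change in RNA per cell cannot be told apart.

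Over the 47 genes the summed level was 371, 445 and 609 TPM in Myc+E2f/Dp. It was 51.5, 56.1 and 48.5 TPM in Yki*+Dp, 21.9, 22.7 and 29.1 TPM in Yki-WT, and 7.98, 10.2 and 8.64 TPM in GFP+P35. The genes were selected for their levels in Myc+E2f/Dp, so the gap between its sum and those of the Yki genotypes is not read as a result. The median gene had 4.80, 5.63 and 6.98 TPM in Myc+E2f/Dp, 0.365, 0.373 and 0.467 TPM in Yki*+Dp, 0.288, 0.353 and 0.315 TPM in Yki-WT, and 0.163, 0.184 and 0.164 TPM in GFP+P35. For 42 of the 47 genes all 3 Myc+E2f/Dp libraries lay above all 9 other libraries. The other 5 were CG43125, CG6293, CG14696, CG30273 and CG5002. The selection itself set Myc+E2f/Dp above the 3 control libraries for all 47. In deposited TPM, 63.8% of 14174 genes had all 3 Myc+E2f/Dp libraries above all 3 control libraries. The share of all genes above all 9 others was not counted. A total of 22 genes stayed below 0.5 TPM in all 9 libraries outside Myc+E2f/Dp.

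**Figure D1:**
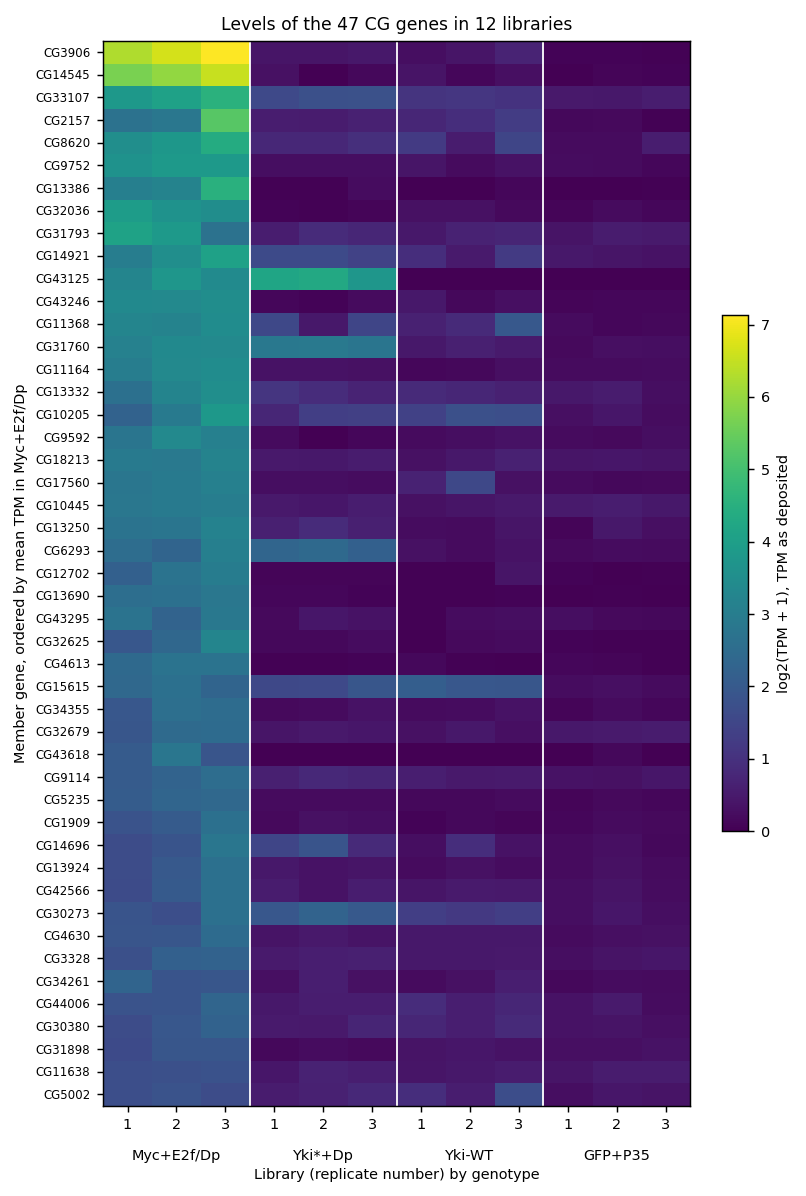
Level of each of the 47 CG genes (rows, ordered by mean TPM in Myc+E2f/Dp) in the 12 libraries (columns, by genotype and replicate number). Colour is log2(TPM + 1) of the deposited TPM; the Myc+E2f/Dp columns are brighter throughout because the genes were selected on them, and CG43125, CG31760, CG6293, CG15615 and CG30273 are also bright in Yki libraries.

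The ratio of mean TPM between Myc+E2f/Dp and GFP+P35 had a median of 35.2 over the genes. The smallest ratio was 5.68, at CG11638. TPM are shares of a library, and the typical gene took a larger share in Myc+E2f/Dp than in control libraries. Once libraries were scaled by the median of ratios over 6633 genes detected in all 12, the median ratio was 19.9 and the smallest 3.25. With the thresholds applied to scaled TPM, 26 genes would have been selected in place of 47. On that scale all 3 Myc+E2f/Dp libraries lay above all 9 others for 40 of the 47, and the share over all genes was not counted.

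Most of the genes were low even in Myc+E2f/Dp. The mean was between 2 and 5 TPM for 19 genes, between 5 and 10 TPM for 17, and at 10 TPM or more for 11. CG3906 and CG14545 stood far above the rest. CG3906, on chromosome 2R from 23511286 to 23512225 in the Ensembl BDGP6.54 annotation, had 76.7, 101 and 139 TPM in Myc+E2f/Dp. It had 0.331, 0.315 and 0.364 TPM in Yki*+Dp, 0.209, 0.320 and 0.626 TPM in Yki-WT, and 0.0571, 0.0564 and 0.0197 TPM in GFP+P35. No library outside Myc+E2f/Dp reached 1 TPM for this gene. CG14545, on chromosome 3R from 25850410 to 25851291, had 50.9, 62.2 and 92.0 TPM in Myc+E2f/Dp. It had 0.257, 0.0111 and 0.110 TPM in Yki*+Dp, 0.296, 0.0877 and 0.237 TPM in Yki-WT, and 0.00865, 0.0718 and 0.0521 TPM in GFP+P35. Both genes have 2 exons, and CG3906 codes over 720 bases and CG14545 over 432.

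CG33107, on 3R from 22583352 to 22584718, had 12.9, 15.8 and 22.6 TPM in Myc+E2f/Dp, 1.95, 2.35 and 2.41 TPM in Yki*+Dp, 1.08, 1.17 and 1.05 TPM in Yki-WT, and 0.399, 0.385 and 0.498 TPM in GFP+P35. The 4 genotypes did not overlap, in that order. CG2157, on X from 10869284 to 10870705, had 5.39, 6.12 and 37.6 TPM in Myc+E2f/Dp, 0.492, 0.454 and 0.566 TPM in Yki*+Dp, 0.694, 0.910 and 1.41 TPM in Yki-WT, and 0.117, 0.132 and 0.0249 TPM in GFP+P35. Its mean in Myc+E2f/Dp rested on the library of replicate 3. CG8620, on 3L from 7158099 to 7158874, had 10.6, 12.7 and 19.9 TPM in Myc+E2f/Dp, 0.724, 0.739 and 0.949 TPM in Yki*+Dp, 1.32, 0.464 and 1.82 TPM in Yki-WT, and 0.167, 0.159 and 0.479 TPM in GFP+P35. Its lowest Yki-WT library lay below its highest control library.

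CG9752, on 2R from 21294402 to 21295588, had 11.5, 13.2 and 13.5 TPM in Myc+E2f/Dp, 0.192, 0.197 and 0.206 TPM in Yki*+Dp, 0.317, 0.149 and 0.271 TPM in Yki-WT, and 0.186, 0.148 and 0.0817 TPM in GFP+P35. The 3 Myc+E2f/Dp libraries were close to each other, and Yki-WT overlapped the control. CG32036, on 3L from 9488050 to 9489233, had 14.3, 11.5 and 10.2 TPM in Myc+E2f/Dp, 0.0495, 0.0269 and 0.0668 TPM in Yki*+Dp, 0.256, 0.253 and 0.137 TPM in Yki-WT, and 0.0734, 0.145 and 0.101 TPM in GFP+P35. Here Yki*+Dp was the lowest of the 4 genotypes. CG31793, on 2L from 19003367 to 19008234, had 16.3, 13.1 and 5.41 TPM in Myc+E2f/Dp, 0.483, 0.835 and 0.701 TPM in Yki*+Dp, 0.377, 0.604 and 0.655 TPM in Yki-WT, and 0.301, 0.465 and 0.420 TPM in GFP+P35. It was lowest in the Myc+E2f/Dp library in which most of the other genes were highest.

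**Figure D2:**
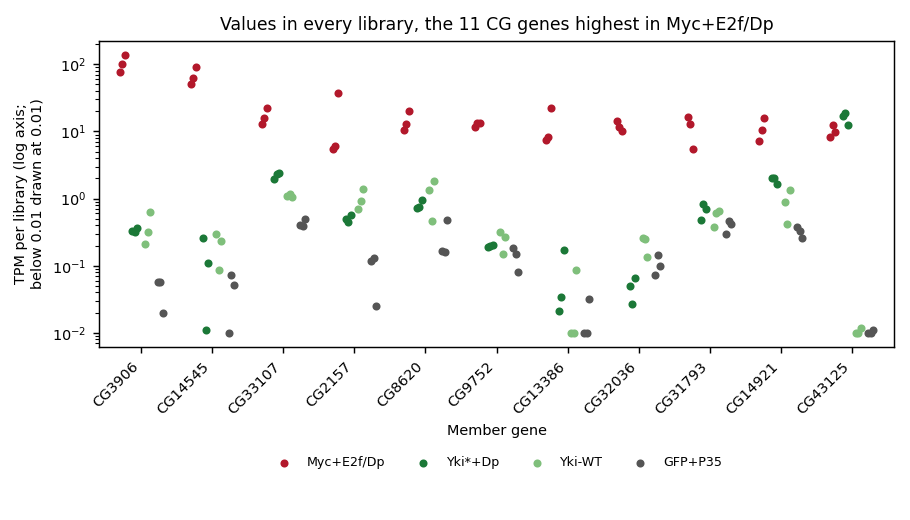
TPM in each of the 12 libraries (points, log axis, values below 0.01 drawn at 0.01) for the 11 CG genes with the highest mean in Myc+E2f/Dp, coloured by genotype. CG3906 and CG14545 reach 50.9 to 139 TPM in Myc+E2f/Dp and stay below 1 TPM elsewhere, and CG43125 is highest in Yki*+Dp.

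Only CG14921 and CG34261 carry a symbol in RefSeq beside their CG number. CG14921 is Dnaaf4 in RefSeq, a dynein axonemal assembly factor, whose human counterpart is needed to build the dynein arms of motile cilia. It lies on 2L from 11120642 to 11121714 and had 7.12, 10.4 and 16.0 TPM in Myc+E2f/Dp, 2.05, 2.02 and 1.64 TPM in Yki*+Dp, 0.892, 0.424 and 1.33 TPM in Yki-WT, and 0.378, 0.329 and 0.262 TPM in GFP+P35. The 4 genotypes did not overlap for it either. CG34261 is Targ3 in RefSeq. It had 3.93, 2.63 and 2.75 TPM in Myc+E2f/Dp, 0.235, 0.501 and 0.260 TPM in Yki*+Dp, 0.157, 0.260 and 0.510 TPM in Yki-WT, and 0.102, 0.173 and 0.158 TPM in GFP+P35. It was detected above 1 TPM in Myc+E2f/Dp libraries alone. RefSeq gives CG4613 and CG43125 the synonyms SP40 and SPH250, names of serine proteases and serine protease homologues in flies.

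Between 5 and 10 TPM on average in Myc+E2f/Dp, and below 1 TPM on average in each of the other 3 genotypes, were CG43246 (mean 9.61 TPM), CG11164 (8.79), CG13332 (8.02), CG9592 (7.55), CG18213 (7.06), CG17560 (6.73), CG10445 (6.59), CG13250 (6.46), CG12702 (5.40), CG13690 (5.38), CG43295 (5.23), CG32625 (5.18) and CG4613 (5.17), all mean TPM in Myc+E2f/Dp. CG17560 was uneven in Yki-WT, where its 3 libraries had 0.600, 1.93 and 0.245 TPM. CG11368 and CG10205 had means of 8.89 and 7.79 TPM in Myc+E2f/Dp, and both reached 1 TPM on average in the Yki genotypes, with 1.36 and 1.24 TPM in Yki*+Dp and 1.43 and 2.06 TPM in Yki-WT. Means between 2 and 5 TPM in Myc+E2f/Dp were found for CG34355 (4.19 TPM), CG32679 (3.99), CG43618 (3.93), CG9114 (3.91), CG5235 (3.86), CG1909 (3.61), CG14696 (3.59), CG13924 (3.45), CG42566 (3.44), CG4630 (3.35), CG3328 (3.20), CG44006 (3.04), CG30380 (2.91), CG31898 (2.51), CG11638 (2.37) and CG5002 (2.32). CG43618 was listed at 0 in all 6 Yki libraries and in all but 1 control library. CG1909 is the only 1 of the 47 on chromosome 4.

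The Myc+E2f/Dp libraries differed among themselves. In deposited TPM 36 of the 47 genes were highest in replicate 3, and 35 were lowest in replicate 1. After scaling, 25 were highest in replicate 3 and 26 lowest in replicate 1. The ratio of the highest to the lowest Myc+E2f/Dp library had a median of 1.65 over the genes, and 4 genes exceeded 3. These were CG2157 (a ratio of 6.98), CG10205 (3.53), CG32625 (3.02) and CG31793 (3.01). CG10205 had 3.70, 6.62 and 13.1 TPM in Myc+E2f/Dp, 0.709, 1.49 and 1.53 TPM in Yki*+Dp, 1.60, 2.32 and 2.27 TPM in Yki-WT, and 0.229, 0.340 and 0.172 TPM in GFP+P35. All 3 oncogene genotypes lay above the control for it. CG32625 had 2.81, 4.26 and 8.47 TPM in Myc+E2f/Dp, and at most 0.174 TPM in any other library. Transgene levels also differed between the 3 libraries. In replicates 1, 2 and 3, Myc had 156, 114 and 232 TPM, Dp 618, 1039 and 1449 TPM and E2f1 1001, 1021 and 795 TPM. Summed ejaculatory duct and bulb markers were 326, 840 and 1467 TPM in the same libraries, and 494, 1216 and 1065 TPM in GFP+P35. The part of transgene levels and of duct RNA in the differences between the Myc+E2f/Dp libraries was not tested.

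Some genes lay close to the thresholds. Just inside on the Myc+E2f/Dp side were CG31898, CG42566 and CG13924, whose lowest Myc+E2f/Dp libraries had 2.04, 2.09 and 2.16 TPM. Just outside were CG18190, CG13877 and CG5853, at 1.80, 1.81 and 1.92 TPM. The control side was as closely filled. CG10445, CG8620 and CG33107 were inside with highest control libraries of 0.473, 0.479 and 0.498 TPM, and CG33099, CG14054 and CG31861 were outside with 0.513, 0.540 and 0.545 TPM.

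Of the 47 genes, 4 had 2 TPM or more in all 3 Yki*+Dp libraries, namely CG43125, CG31760, CG6293 and CG30273, and CG15615 alone did so in Yki-WT. Among all 3076 CG genes below 0.5 TPM in every control library, these included, 16 did so in Yki*+Dp and 3 in Yki-WT. CG43125, on 3R from 28262735 to 28263622, had 8.39, 12.5 and 9.70 TPM in Myc+E2f/Dp and 17.1, 18.6 and 12.5 TPM in Yki*+Dp. It was listed at 0, 0 and 0.0120 TPM in Yki-WT and at 0, 0 and 0.0111 TPM in GFP+P35. It was the only 1 of the 47 with a higher mean in Yki*+Dp than in Myc+E2f/Dp (44 of 47 were higher in Myc+E2f/Dp on scaled TPM). CG31760, on 2L from 12142780 to 12170508, had 7.85, 9.48 and 9.30 TPM in Myc+E2f/Dp, 6.25, 6.37 and 5.78 TPM in Yki*+Dp, 0.382, 0.535 and 0.436 TPM in Yki-WT, and 0.129, 0.214 and 0.205 TPM in GFP+P35. CG6293, on 3R from 10307806 to 10311613, had 4.80, 3.92 and 7.51 TPM in Myc+E2f/Dp, 3.98, 4.45 and 3.53 TPM in Yki*+Dp, 0.255, 0.166 and 0.268 TPM in Yki-WT, and 0.131, 0.184 and 0.146 TPM in GFP+P35. For these 3 genes Yki*+Dp was high and Yki-WT stayed below 1 TPM, while the level in Myc+E2f/Dp was set by the selection. Yki*+Dp and Yki-WT differ in the form of Yki and the yki level as well as in UAS-Dp. The part of each was not tested.

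In deposited TPM, CG30273 and CG15615 lay above every control library in all 9 libraries of the other genotypes, as did 16 of the 47 genes in all. The selection set the Myc+E2f/Dp libraries above a low control for all 47. The share over all genes was not counted, so the count of 16 is not read as a response to Yki. CG30273, on 2R from 22667155 to 22668848, had 2.62, 2.25 and 5.20 TPM in Myc+E2f/Dp, 2.80, 3.86 and 3.01 TPM in Yki*+Dp, 1.5, 1.28 and 1.48 TPM in Yki-WT, and 0.203, 0.351 and 0.190 TPM in GFP+P35. CG15615, on 2R from 16793119 to 16796407, had 4.34, 5.14 and 3.91 TPM in Myc+E2f/Dp, 1.92, 1.95 and 2.75 TPM in Yki*+Dp, 3.38, 2.80 and 2.72 TPM in Yki-WT, and 0.174, 0.234 and 0.164 TPM in GFP+P35. The 5 genes named here and above were picked on their Yki levels, most of them in Yki*+Dp. Leaving them out had to lower the Yki sums. Without these 5 genes the summed level of the remaining members was 343 to 573 TPM in Myc+E2f/Dp and 7.34 to 9.25 TPM in GFP+P35. It was 19.4 to 20.9 TPM in Yki*+Dp and 16.4 to 24.1 TPM in Yki-WT. The overlap of the 2 Yki genotypes follows a removal based on their own values, and nothing is read from it about the remaining genes. As given above, yki itself was above control in the Myc+E2f/Dp libraries, and its part in the levels shared with Yki*+Dp was not tested.

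**Figure D3:**
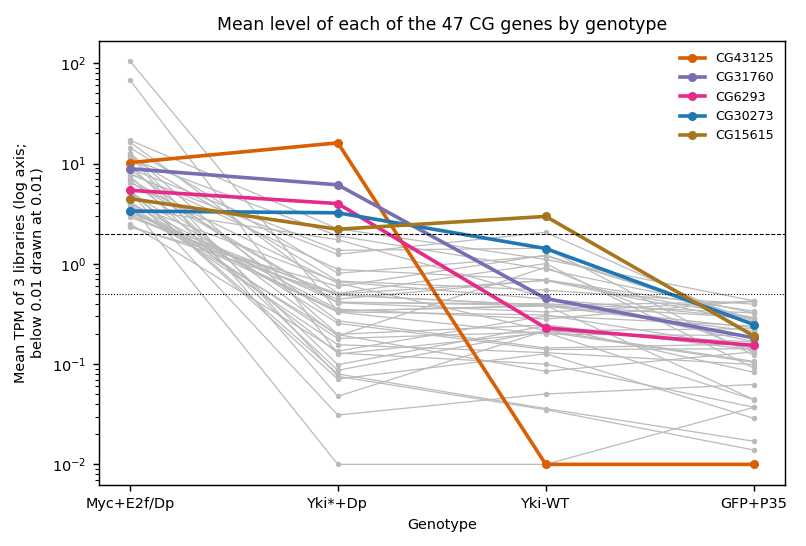
Mean TPM of 3 libraries for each of the 47 CG genes (lines) in the 4 genotypes, on a log axis with means below 0.01 drawn at 0.01; the dashed line is 2 TPM and the dotted line 0.5 TPM. CG43125, CG31760 and CG6293 stay high in Yki*+Dp and drop in Yki-WT, while CG30273 and CG15615 are above 1 TPM in both.

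Yki*+Dp and Yki-WT took no part in the selection, and the direct comparison between them asks which of these genes differ between active Yki with Dp and wild-type Yki. In this comparison 3 of the 47 genes rose and 0 fell. A gene was called where limma gave an adjusted p under 0.05 and its log2 fold change reached 1 in either direction, with Benjamini-Hochberg adjustment over the 8128 genes tested. Over those genes 2.47% were called higher and 1.55% lower, and with 3 calls nothing is read about the 47 as a set. The 3 that rose were CG43125 (log2 fold change 4.01, standard error 0.14, limma adjusted p = 2.70e-08), CG31760 (2.16, standard error 0.07, adjusted p = 2.02e-08) and CG6293 (1.91, standard error 0.13, adjusted p = 6.75e-06), all higher in 3 of 3 libraries. Fold changes are on the scale of log2(scaled TPM + 1), which understates changes of low genes.

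At an unadjusted p under 0.05, 8 of the 47 were higher and 8 lower in Yki*+Dp. Several passed the adjusted p without the fold change. CG33107 had 2.24 ± 0.249 TPM in Yki*+Dp and 1.10 ± 0.0620 TPM in Yki-WT (SD, n = 3 each), a log2 fold change of 0.43 in limma with an adjusted p of 0.0160. CG30273 had 3.22 ± 0.562 TPM in Yki*+Dp and 1.42 ± 0.119 TPM in Yki-WT (SD, n = 3 each), with 0.58 and a limma adjusted p of 0.0208. CG15615 lay the other way, with 2.21 ± 0.472 TPM in Yki*+Dp and 2.97 ± 0.360 TPM in Yki-WT (SD, n = 3 each), a log2 fold change of -0.56 and a limma adjusted p of 0.00861. Of the 47, 9 reached 1 TPM in 3 or more libraries outside Myc+E2f/Dp, and the rest entered this test only through their Myc+E2f/Dp levels. At pseudocounts of 0.1 and 0.5 the calls were 5 higher with 4 lower and 3 higher with 1 lower. Without Yki-WT replicate 3, CG17560 was called lower (log2 fold change -1.02, limma adjusted p = 0.00446), against -0.72 with all libraries.

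**Figure D4:**
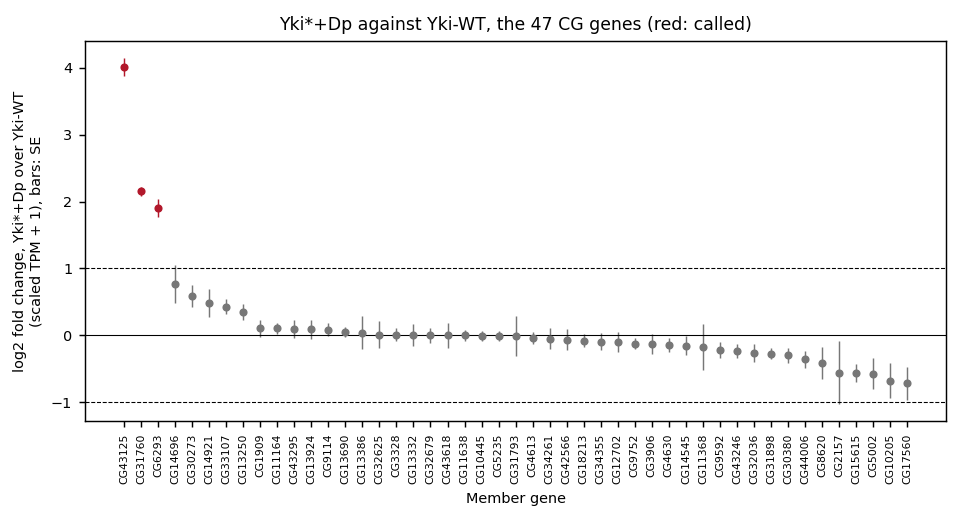
log2 fold change of Yki*+Dp over Yki-WT (points, bars are standard errors, limma on scaled TPM + 1) for each of the 47 CG genes in order. CG43125, CG31760 and CG6293 (red) are called, between 1.91 and 4.01, and the other 44 lie between the dashed lines at -1 and 1.

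All 47 genes are placed on the annotation as protein coding. They lie on X (8 genes), 2L (6), 2R (11), 3L (11), 3R (10) and 4 (1). Single-exon genes were 5 of the 47 (10.6%), namely CG13332, CG9592, CG13690, CG30380 and CG31898. Of the other CG genes below 0.5 TPM in every control library, 25.5% have 1 exon. The median coding length was 999 bases for the 47 and 855 bases for those others, and the median transcript length was 1172 and 1210 bases. The table lists 1 transcript for 28 of the 47. In gene length they run from 290 bases at CG43618 to 55309 bases at CG34355. These are descriptions of genes that were chosen on their levels.

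A total of 6 of the 47 lie within 10 kb of another. CG13386 and CG31898 lie 342 bases apart on 2L, from 8399021 to 8401592 together, on the same strand. CG13386 had 7.44, 8.18 and 22.0 TPM in Myc+E2f/Dp, 0.0209, 0.0347 and 0.171 TPM in Yki*+Dp, 0.00949, 0.00846 and 0.0873 TPM in Yki-WT, and 0, 0.00928 and 0.0324 TPM in GFP+P35. CG31898 had 2.04, 2.75 and 2.75 TPM in Myc+E2f/Dp, 0.108, 0.168 and 0.129 TPM in Yki*+Dp, 0.288, 0.353 and 0.267 TPM in Yki-WT, and 0.215, 0.223 and 0.280 TPM in GFP+P35. The large value of CG13386 in Myc+E2f/Dp replicate 3 had no counterpart in its neighbour.

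CG4613 and CG9592 lie 1284 bases apart on 3L, from 14517825 to 14521690 together, on opposite strands. Both sit inside bbg (big bang), a gene for a PDZ-domain protein, and CG43246 lies 357 bases outside it. CG4613 had 4.39, 5.55 and 5.58 TPM in Myc+E2f/Dp, 0.0243, 0.0271 and 0.0417 TPM in Yki*+Dp, 0.118, 0.0197 and 0.0136 TPM in Yki-WT, and 0.0836, 0.0723 and 0.0317 TPM in GFP+P35. CG9592 had 5.79, 9.24 and 7.61 TPM in Myc+E2f/Dp, 0.150, 0.0152 and 0.0946 TPM in Yki*+Dp, 0.154, 0.212 and 0.279 TPM in Yki-WT, and 0.166, 0.132 and 0.20 TPM in GFP+P35. CG43246 was even across Myc+E2f/Dp, at 9.37, 9.15 and 10.3 TPM. bbg itself averaged 12.5 ± 8.06 TPM in Myc+E2f/Dp, 12.5 ± 2.06 TPM in Yki*+Dp and 3.85 ± 0.737 TPM in GFP+P35 (SD, n = 3 each), and was not called (log2 fold change 0.62, limma adjusted p = 0.0977). Its mean was thus as high in Yki*+Dp as in Myc+E2f/Dp. The 3 CG genes beside and within it were selected on their Myc+E2f/Dp values, and the part of bbg in their levels was not tested.

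CG42566 and CG30273 lie 3913 bases apart on 2R, from 22661934 to 22668848 together. CG42566 had 2.09, 3.03 and 5.20 TPM in Myc+E2f/Dp, 0.464, 0.284 and 0.499 TPM in Yki*+Dp, 0.325, 0.431 and 0.396 TPM in Yki-WT, and 0.197, 0.304 and 0.190 TPM in GFP+P35. CG30273, given above, was the higher of the pair in both Yki genotypes and close to CG42566 in Myc+E2f/Dp.

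The selection used no value of the genes next to these 47, and so the nearest gene to each was tested between Myc+E2f/Dp and GFP+P35. The 47 have 45 distinct nearest genes, of which 30 passed the filter of 1 TPM in 3 libraries. Of these 30, 3 rose and 0 fell, and at an unadjusted p under 0.05 there were 13 higher and 8 lower. Over all 8128 genes 7.15% were called higher and 5.94% lower by limma. The median log2 fold change was 0.17 for the 30 neighbours and 0.05 for all tested genes. In deposited TPM, which moves the median of all genes to 0.74, 15 of the 30 were called higher. The 3 calls higher among the 30 tested neighbours are near the share over all genes on scaled values. Nothing is read from these counts about the neighbours as a set. Among the nearest genes of the 47, counted once per member, 16 were themselves below 0.5 TPM in every control library.

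The 3 neighbours that rose were dre4, ZnT33D and CG30269. dre4, which encodes the Spt16 subunit of the histone chaperone FACT, lies 9 bases from CG13924 on the opposite strand. It had 38.3, 49.7 and 67.7 TPM in Myc+E2f/Dp, 10.1, 10.8 and 9.91 TPM in Yki*+Dp, 6.31, 6.92 and 8.08 TPM in Yki-WT, and 7.26, 9.67 and 8.25 TPM in GFP+P35. It rose with 1.69 on the log2 scale (standard error 0.12, limma adjusted p = 6.16e-07). CG13924 itself had 2.16, 3.01 and 5.18 TPM in Myc+E2f/Dp, and at most 0.369 TPM elsewhere.

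ZnT33D, a zinc transporter gene, lies inside CG31760 on the same strand. It had 6.93, 8.91 and 8.38 TPM in Myc+E2f/Dp, 3.40, 3.56 and 3.54 TPM in Yki*+Dp, 0.0315, 0.122 and 0.221 TPM in Yki-WT, and 0.0427, 0.0139 and 0.0944 TPM in GFP+P35. Its rise on the log2 scale was 2.65 (standard error 0.09, limma adjusted p = 1.80e-09). Its order of genotypes was that of CG31760. CG30269 contains CG30273 on the same strand and had 4.57, 3.01 and 8.72 TPM in Myc+E2f/Dp, 6.18, 6.71 and 4.38 TPM in Yki*+Dp, 3.51, 2.25 and 2.36 TPM in Yki-WT, and 0.626, 0.819 and 0.392 TPM in GFP+P35. It rose with 1.38 (standard error 0.25, limma adjusted p = 0.000623). Reads from such overlapping genes may have been split between them, and the values of both members of each overlap are uncertain.

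**Figure D5:**
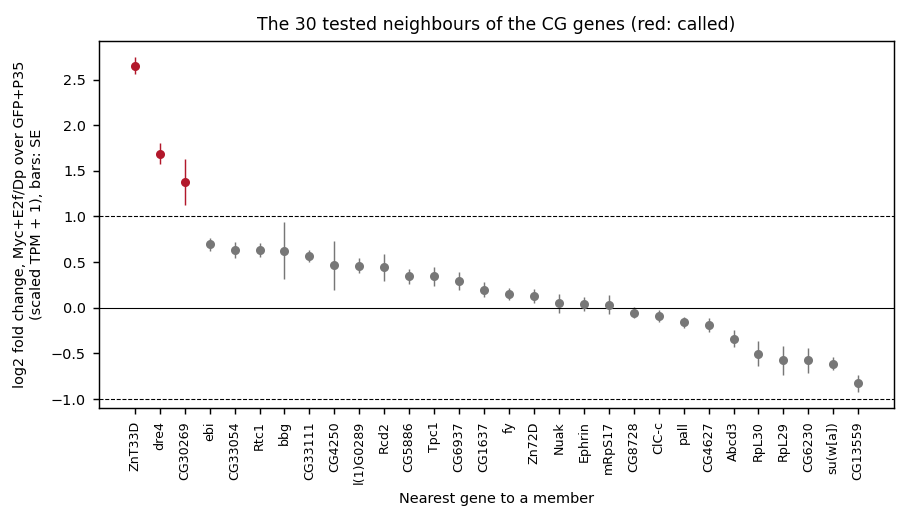
log2 fold change of Myc+E2f/Dp over GFP+P35 (points, bars are standard errors, limma on scaled TPM + 1) for the 30 tested genes nearest to the 47 CG genes. ZnT33D, dre4 and CG30269 (red) are called, between 1.38 and 2.65, and the other 27 lie between the dashed lines at -1 and 1.

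In all, 20 of the 47 overlap their nearest gene, 16 on the opposite strand and 4 on the same strand, and 7 lie inside it. The neighbour is often far more abundant. CG9752 overlaps RpL29, a ribosomal protein gene at 2954 ± 153 TPM in Myc+E2f/Dp and 2505 ± 296 TPM in GFP+P35, by 3 bases. CG31793 overlaps RpL30, another ribosomal protein gene at 2400.2 ± 136 TPM in Myc+E2f/Dp and 1929 ± 88.1 TPM in GFP+P35, by 204 bases. CG11638 lies within su(wa), a splicing regulator gene at 400.5 ± 21.2 TPM in Myc+E2f/Dp and 348 ± 24.7 TPM in GFP+P35, on the opposite strand (SD, n = 3 each). Over the 20 overlaps, the nearest gene had 0.5 TPM or more in every control library in 14 and was below that in 1 or more control libraries in 6. The part of these overlaps in the values of the CG genes was not tested. Whether the strand was used in assigning reads is not given in the sources used here. CG43125 lies 248 bases from CG43124 on the same strand, and CG43124 had 0.172, 0.318 and 0.370 TPM in Myc+E2f/Dp, 0.456, 0.293 and 0.275 TPM in Yki*+Dp, and at most 0.0438 TPM in Yki-WT and GFP+P35, below the filter for testing.

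Genes of the pathways that the transgenes act on were counted in the same comparison as the neighbours. Of 48 tested genes of DNA replication, 40 rose and 0 fell (45 higher and 3 lower at an unadjusted p under 0.05). Of the 48, 22 reached the filter of 1 TPM in 3 libraries only through Myc+E2f/Dp and so had to differ, and all 22 were called. Of the other 26, 18 rose and 0 fell, against the 7.15% called higher and 5.94% called lower over all genes. Without any 1 of the Myc+E2f/Dp libraries the count was 21, and it was 40 where the 8128 genes were kept. The largest were PCNA (the sliding clamp of DNA polymerase), Ts (thymidylate synthase) and RnrL (the large subunit of ribonucleotide reductase). PCNA averaged 105 ± 14.8 TPM in Myc+E2f/Dp and 0.183 ± 0.107 TPM in GFP+P35 (SD, n = 3 each), with a log2 fold change of 5.93 (limma adjusted p = 1.11e-08). Ts and RnrL rose with 5.39 and 4.59 (limma adjusted p = 5.29e-11 and 1.66e-11). PCNA and Ts are among the 22 that passed the filter only through Myc+E2f/Dp and so had to differ. RnrL is not, since it also reached 1 TPM in all 3 Yki*+Dp libraries. CG3906 reached the level of PCNA in Myc+E2f/Dp. Of 49 replication genes, 18 would pass the thresholds that selected the CG genes, and 145 of all 14323 genes would. Of 19 nucleolar genes, which are targets of Myc in growing tissues, 0 rose and 0 fell on scaled values (3 higher and 3 lower at an unadjusted p under 0.05), with a median log2 fold change of 0.01. In deposited TPM 2 of the 19 were called higher, and their median log2 fold change was 0.78, against 0.74 over all tested genes. There the 3 Myc+E2f/Dp libraries lay above all 3 control libraries for 19 of the 19, where 63.8% of 14174 genes did so.

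Markers of other tissues were read beside these levels. Of 25 tested testis genes, 1 rose and 1 fell, against 7.15% higher and 5.94% lower over all genes tested, which is also what the counts for the other tissues are read against. topi, a part of the testis-specific meiotic arrest complex, had 4.44, 7.82 and 9.69 TPM in Myc+E2f/Dp, against 0.0610, 0.0233 and 0.0768 TPM in GFP+P35, with a log2 fold change of 2.48 (limma adjusted p = 1.13e-06). It passed the filter only through Myc+E2f/Dp and so had to differ, and the testis count higher was 0 without any 1 of these libraries (1 where the 8128 genes were kept) and 0 with a filter at 5 TPM. vis, a homeobox gene of spermatogenesis, fell with -1.44 (limma adjusted p = 2.07e-05; in deposited TPM it was at -0.91 and was not called). The summed testis markers were 44.3 to 93.8 TPM in Myc+E2f/Dp, 29.1 to 74.5 TPM in Yki*+Dp, 51.0 to 192 TPM in Yki-WT and 31.4 to 165 TPM in GFP+P35, so Myc+E2f/Dp lay within the range of the control. Of 50 testis genes, topi alone passed the thresholds that selected the CG genes, beside 145 of all 14323 genes. In deposited TPM the 3 Myc+E2f/Dp libraries lay above all 3 control libraries for 9 of the 50 and below them for 1, where 63.8% and 3.79% of 14174 genes did so. The part of testis RNA in the levels of the 47 genes was not tested.

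Of the 14 early germline genes, 2 were tested and spn-E, a helicase of the piRNA pathway, rose (4.92, 4.80 and 5.10 TPM in Myc+E2f/Dp against 0.0837, 0.0935 and 0.0685 TPM in GFP+P35, log2 fold change 2.03, limma adjusted p = 5.31e-08). spn-E passed the filter only through Myc+E2f/Dp and so had to differ, and the germline count was 0 without any 1 of these libraries (1 where the 8128 genes were kept) and 0 with a filter at 5 TPM. Summed early germline markers were 12.8 to 14.0 TPM in Myc+E2f/Dp, 5.26 to 6.0 TPM in Yki*+Dp, 2.90 to 9.03 TPM in Yki-WT and 3.16 to 3.68 TPM in GFP+P35. In deposited TPM the Myc+E2f/Dp libraries lay above all 3 control libraries for 12 of the 14 and below them for 0, beside the same 63.8% and 3.79% of all genes. vas, a germline RNA helicase, had 0.577, 0.673 and 0.838 TPM in Myc+E2f/Dp, against 0.0130, 0.0394 and 0.0158 TPM in GFP+P35. nos, a translational repressor of germline stem cells, had 0.212, 0.328 and 0.399 TPM in Myc+E2f/Dp and was listed at 0 in all 3 control libraries. bam, which defines differentiating germ cells, had 0.0170, 0.00512 and 0.0249 TPM in Myc+E2f/Dp and was listed at 0 in the control too. The part of germline RNA in the levels of the 47 genes was not tested.

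For other tissues, of 7 ejaculatory duct and bulb genes 0 rose and 3 fell, namely Est-6, EbpIII and Dup99B (log2 fold changes of -2.52, -1.58 and -1.34), and of these Est-6 alone was called in deposited TPM. Muscle genes had 1 higher and 4 lower of 6 tested. TpnC4, a troponin C, rose with 1.89 (limma adjusted p = 2.25e-06), and up and Mhc fell with -1.24 and -1.15 but were not called in deposited TPM. Of 6 hemocyte genes, 4 neuronal genes and 1 gut gene none was called after median-of-ratios scaling (1 hemocyte and 1 neuronal gene higher, 1 of each lower at an unadjusted p under 0.05), and no fat body gene passed the filter. crq, a scavenger receptor of hemocytes, had 13.6, 18.3 and 24.1 TPM in Myc+E2f/Dp, against 4.61, 6.2 and 4.32 TPM in GFP+P35. It lay just under the fold threshold (log2 fold change 0.94, limma adjusted p = 0.000126), and 1 hemocyte gene was called higher in deposited TPM and with 75th percentile scaling. Among the gland's own genes, 4 of 11 main cell markers and 3 of 5 secondary cell markers fell. Acp36DE, Acp98AB and SP fell in main cell markers with -1.94, -1.82 and -1.34, and lectin-46Ca, lectin-46Cb and CG17575 in secondary cell markers with -1.78, -1.71 and -1.67. In deposited TPM, Acp36DE and Acp98AB were the 2 main cell markers still called lower, and 0 secondary cell markers were.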

How the data were processed

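RNA-seq of accessory glands was analysed in 12 libraries, 3 for each of 4 genotypes, grouped by the genotype in the sample labels. The authors selected poly-A RNA, sequenced the stranded libraries on a NovaSeq instrument, assigned reads to the Ensembl BDGP6.28 transcripts with kallisto, and deposited TPM per transcript and per gene. The submitters' processing notes also name cutadapt 1.18 and sleuth. TPM keep no depth, so the depth per library is unknown and precision rests on the spread of 3 libraries. The labels call the replicates independent.

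The 47 genes, the gene lists and the tests were chosen with earlier results of these data known. Deposited TPM were multiplied by a median-of-ratios factor per library, from the 6633 genes that reached 1 TPM everywhere and converted to log2(value + 1), 1 being the pseudocount. The 8128 of 14323 genes that reached 1 TPM in at least 3 libraries were fitted in 1 model over the 4 genotypes with limma 3.58.1 in R 4.3.3 (eBayes with trend), tested on simulated data. The authors used sleuth, whose thresholds, adjusted p of 0.05 and log2 fold change of 1, were kept. Values of Myc+E2f/Dp and GFP+P35 over the 47 genes were not tested, since they chose them.

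Positions came from Ensembl BDGP6.54 and symbols from RefSeq, with all 47 matched. The nearest gene was the one with the smallest gap to the gene body on either strand. The rule for values in every library covered the 10 genes highest in Myc+E2f/Dp, those called or at 2 TPM in a Yki genotype, those within 10 kb of another, the 3 most uneven ones and those with another symbol. It also covered called neighbours and the 3 most changed called genes of each list. bam, vas, nos, crq, CG43124, bbg, RpL29, RpL30 and su(wa) were chosen after their values were seen. A planned search of promoters for motifs was not run. Plots were made in Python 3.11.15 with matplotlib 3.10.9.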

Additional observations from a re-analysis of the deposited data

How the results depend on the processing

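The number of genes selected was 23 and 86 with control thresholds of 0.2 and 1 TPM, 98 and 21 with Myc+E2f/Dp thresholds of 1 and 5 TPM, 26 on scaled TPM, and 47 to 54 without 1 library. In Yki*+Dp against Yki-WT, pseudocount 0.1 gave 5 genes higher and 4 lower and pseudocount 0.5 gave 1 lower. Without 1 library there were 3 to 4 higher and 0 to 1 lower, and 263 to 349 genes called in all. CG43125, CG31760 and CG6293 kept their calls under every alternative that tested them. Neighbours called higher were 15 in deposited TPM and 12 when every gene within 5 kb was counted. Neighbours called lower were 4 within 5 kb and 2 when the nearest gene that does not overlap was used. Called neighbours were 3 higher and 0 lower without any 1 library. The replication list had 21 to 40 genes called higher without 1 library. The nucleolus list had 2 in deposited TPM, and 0 without 1 library. The testis list had 3 in deposited TPM, 3 and 2 at pseudocounts of 0.1 and 0.5, 0 with a filter at 5 TPM, and 0 to 1 without 1 library. The early germline list had 0 with a filter at 5 TPM and 0 to 1 without 1 library. All genes called in Myc+E2f/Dp were 2448 in deposited TPM (2340 higher and 108 lower, or 95.6% higher against 54.6%) and 747 to 1178 without 1 library, the alternative added below included. With 75th percentile scaling 64.2% of the calls were higher. In Yki*+Dp against Yki-WT, 83.5% of the calls were higher in deposited TPM, against 61.5%.

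The falls of the replication, testis and early germline lists came from leaving out a Myc+E2f/Dp library, when genes high in that genotype alone no longer reach 1 TPM in 3 libraries. In an alternative chosen after seeing the data, which kept the 8128 genes, the counts were 40, 1 and 1 without any of these libraries.

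Deviations from the genotype means correlated at -0.31 to 0.51 over 18 pairs of same-numbered libraries, and at -0.38 to 0.37 over pairs with other numbers. The ranges overlapped, and replicate numbers were not taken as pairs. With the replicate block 333 genes were called in Yki*+Dp against Yki-WT, 3 of the 47 among them, and 1073 in Myc+E2f/Dp, 3 neighbours among them, and 8 of 12 libraries correlated best with their own number.

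TPM give no depth. How many reads lie behind a gene at 2 TPM is therefore unknown. The labels and the paper differ on the day of heat shock.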
